A study of Mus musculus with 8 samples.

Results

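Glucose uptake and upper glycolysis were followed through 10 genes, listed by name for their place in the pathway, with earlier results of these data known: the glucose transporter Slc2a1, the hexokinases Hk1 and Hk2, the isomerase Gpi1, the phosphofructokinases Pfkl, Pfkm and Pfkp, their regulator Pfkfb3, and the aldolases Aldoa and Aldoc. All 10 were found among the 24460 genes counted, and all 10 were among the 14296 genes with enough counts to be tested. RNA-Seq was performed on wild-type mouse embryonic fibroblasts (MEFs), cultured cells derived from embryonic connective tissue, which had been exposed to RHPS4 while sub-confluent. There were 3 libraries of untreated cells (0 µM), 3 of cells at 2 µM and 2 of cells at 10 µM. RHPS4 is a positively charged small molecule that binds G-quadruplexes (G4), four-stranded structures that guanine-rich nucleic acids can form. All groups shared a medium with 25 mM glucose, 4 mM glutamine and pyruvate. The labels give exposures of 16 or 24 h and do not say which was used for these libraries, and the study describes 2 µM work over 24 h without naming them. They also do not say whether replicates were separate cultures or from how many embryos the line came, so p-values measure the spread between these libraries, which may be technical.

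Glucose enters most cultured cells through facilitative transporters, of which Slc2a1 (GLUT1) is the usual form in fibroblasts, and is trapped inside when a hexokinase phosphorylates it. Gpi1 converts glucose phosphate into fructose phosphate, phosphofructokinase adds a second phosphate in the committed and most tightly controlled step, and aldolase splits the product into triose phosphates. Most of these steps are served by paralogs that differ in tissue distribution and regulation, so that the same flux can be carried by different gene products.

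The 8 libraries held 10455965 to 26688121 counts, and 3 counts corresponded to 0.112 to 0.287 CPM (counts scaled to library size). Such floors cover counting error only. The share of counts from mitochondrial DNA was 13.2 to 14.4% at 0 µM, 7.40 to 8.26% at 2 µM and 5.33 to 6.32% at 10 µM, and its part in the results below was not tested, but a scaling factor computed without these features changed no call of the 10 genes. No library stood close enough to another to be the same library deposited again. Of 10 fibroblast markers, 9 reached 1 CPM on average in each dose group. The 10 markers summed to 8760 to 9582 CPM at 0 µM, 8188 to 9142 CPM at 2 µM and 7897 to 8397 CPM at 10 µM. The ranges at 0 and 10 µM did not overlap. The summed markers of blood cells, endothelium, epithelium, muscle and fat each stayed between 0.991 and 11.3 CPM in every library, with the globin gene Hbb-bs at 0 in all. Those of the 4 neural markers summed to 43.5 to 55.8 CPM, nearly all from Map2, with overlapping ranges at the 3 doses.

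The promoters of the genes that changed most are shown because RHPS4 binds G4 structures, and the windows show which starts carry such a motif. The windows run from 250 bases before to 50 bases after the RefSeq start on GRCm38 and are written 5′ to 3′ on the gene's own strand. Capitals mark 2 kinds of motif: a G4 motif, which is 4 runs of at least 3 G with loops of 1 to 7 bases (it appears as C runs where it lies on the opposite strand), and the 5-letter core of hypoxia response elements, ACGTG or GCGTG, on either strand (as CACGT or CACGC on the opposite one). The windows are chr4:119108495-119108794 (plus strand) for Slc2a1, chr10:78009758-78010057 (minus) for Pfkl and chr13:6648722-6649021 (minus) for Pfkp.
Slc2a1: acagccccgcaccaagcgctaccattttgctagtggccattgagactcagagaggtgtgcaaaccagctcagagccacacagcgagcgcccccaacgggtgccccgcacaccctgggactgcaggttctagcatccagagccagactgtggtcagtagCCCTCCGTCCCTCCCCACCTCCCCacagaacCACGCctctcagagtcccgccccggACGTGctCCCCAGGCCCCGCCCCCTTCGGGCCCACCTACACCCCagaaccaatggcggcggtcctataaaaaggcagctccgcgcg
Pfkl: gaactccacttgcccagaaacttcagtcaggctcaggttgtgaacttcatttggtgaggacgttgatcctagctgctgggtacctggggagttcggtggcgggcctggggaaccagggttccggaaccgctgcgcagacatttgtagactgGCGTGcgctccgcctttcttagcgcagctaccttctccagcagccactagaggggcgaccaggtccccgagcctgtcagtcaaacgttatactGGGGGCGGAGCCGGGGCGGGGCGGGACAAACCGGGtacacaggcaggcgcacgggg
Pfkp: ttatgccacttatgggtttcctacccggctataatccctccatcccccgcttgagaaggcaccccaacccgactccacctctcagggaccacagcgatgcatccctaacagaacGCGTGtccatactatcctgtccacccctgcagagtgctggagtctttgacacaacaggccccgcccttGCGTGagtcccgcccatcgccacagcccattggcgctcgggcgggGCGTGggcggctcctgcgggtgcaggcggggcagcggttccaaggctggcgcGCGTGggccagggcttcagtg
The Slc2a1 window held 2 G4 stretches and 2 hypoxia cores, the Pfkl window 1 of each, and the Pfkp window no G4 motif and 4 hypoxia cores. The Gpi1 window (chr7:34230287-34230586, minus strand) held neither motif. Over all 18 windows that RefSeq lists for the 10 genes, 7 windows of 6 genes held a G4 motif (Slc2a1, Hk1, Pfkl, Pfkm, Pfkfb3 and Aldoa), and 14 windows of 9 genes held a hypoxia core. Among all 32851 windows in the table the G4 motif was found in 18.6% and the hypoxia core in 43.77%, and among the 13632 windows of tested genes in 27.3% and 59.94%. These matches describe letters and do not show a folded structure or a bound factor.

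At 10 µM, 3 of the 10 genes were lower by the criteria for a differentially expressed gene (DEG), an adjusted p under 0.01 with a fold change over 1.5: Pfkl was 49.2% lower, Slc2a1 44.4% and Gpi1 34.6%. At 2 µM only Pfkp met them, with 35.8% less mRNA. Between 2 and 10 µM only Pfkl did, at 40.7% lower, and none of the 10 genes was a DEG in the upward direction in any of the 3 comparisons (0.119%, 1.95% and 3.92% of all tested genes were). Among all tested genes, the share of DEGs that were lower was 0.378% at 2 µM against 0 µM, 1.14% at 10 µM against 0 µM and 1.59% at 10 µM against 2 µM, and that of DEGs in either direction was 0.497%, 3.09% and 5.51%. With the edgeR adjusted p alone and no minimum fold, 1, 5 and 3 of the 10 genes were lower in these comparisons. Of all genes 0.546%, 2.46% and 5.13% were. By the same rule Pfkp was higher at 10 µM than at 2 µM, as were 5.63% of all genes. DESeq2 put more of the 10 genes under that adjusted p at 2 and 10 µM against 0 µM, among them Hk1 at both doses. The groups of libraries did not overlap for 7, 8 and 7 of the 10 genes, against 25.7%, 42.9% and 51.8% of all genes.

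The median log2 fold change of the 10 genes against 0 µM was -0.22 for 2 µM, where that of all tested genes was -0.011, and -0.44 for 10 µM, where it was 0.016. Between 2 and 10 µM these medians were -0.12 and 0.026. Values at both doses were set against the same 3 untreated libraries, so the first 2 comparisons are not independent of each other. The median of all genes moved to 0.23 at 10 µM against 0 µM, and to 0.16 against 2 µM, when counts were scaled by library totals alone. With that scaling the medians of the 10 genes were -0.14 at 2 µM and -0.22 at 10 µM against 0 µM, and from 2 to 10 µM the sign turned, to 0.012. In bulk RNA, fewer cells with a transcript cannot be told apart from less of it per cell.

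**Figure D1:**
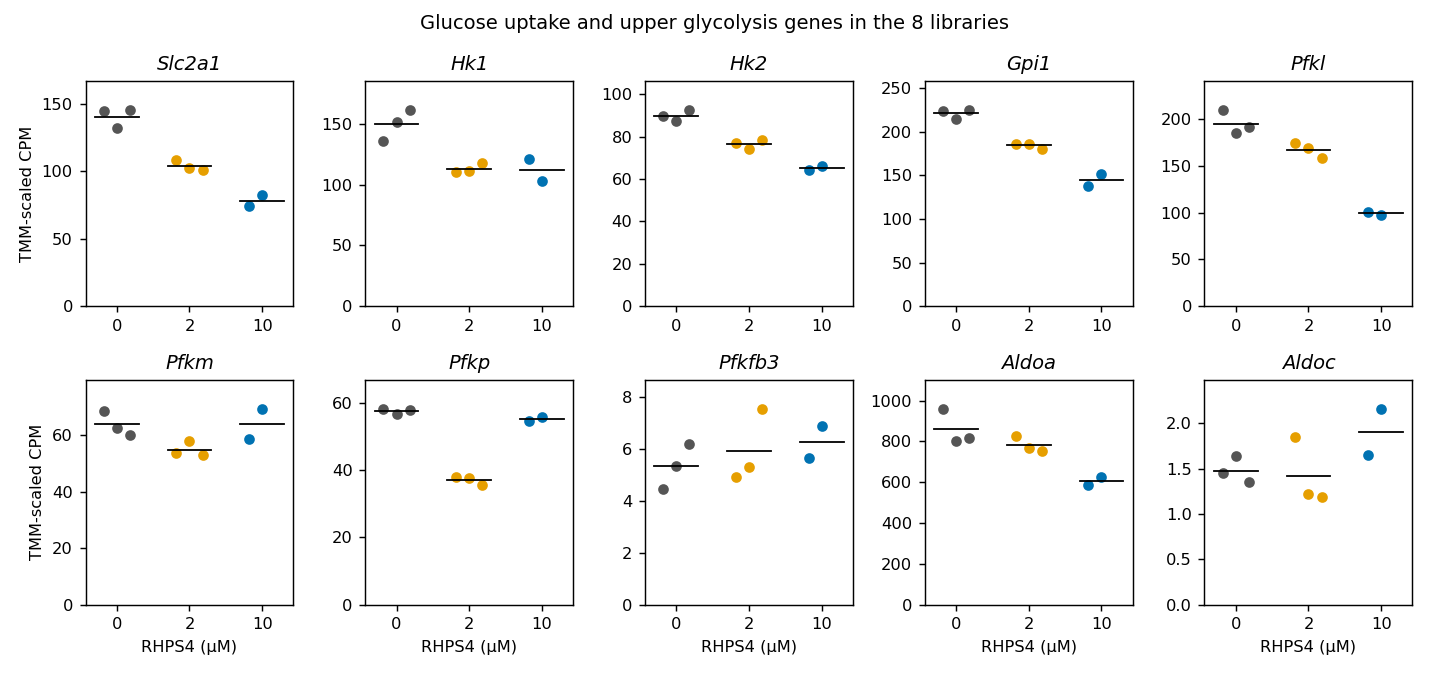
Level of each of the 10 genes in the 8 libraries, in TMM-scaled CPM on axes that start at 0, by RHPS4 dose in µM; each point is a library and the bar is the mean of its dose. Slc2a1, Hk2, Gpi1 and Pfkl step down from dose to dose, whereas all 2 µM libraries of Pfkp and Pfkm lie below the others and Pfkfb3 and Aldoc overlap between 0 and 2 µM.

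The glucose transporter Slc2a1 was at 145, 132 and 145 CPM without RHPS4, at 109, 103 and 101 CPM at 2 µM, and at 74.1 and 82.5 CPM at 10 µM. No library of a higher dose reached any library of a lower dose. The log2 fold change at 10 µM was -0.85 (SE 0.0836, edgeR adjusted p = 8.55e-05). At 2 µM it was -0.43 (SE 0.0729), under the minimum fold, with an edgeR adjusted p of 0.0111 that missed the threshold. DESeq2 gave an adjusted p of 0.000804 at 2 µM, also under the minimum fold. Between 2 and 10 µM the log2 fold change was -0.41 (SE 0.0832, edgeR adjusted p = 0.00516), under the minimum fold. The gene lies at chr4:119108711-119137983 on GRCm38, and its promoter, shown above, was the only one of those printed with more than 1 G4 stretch. A window of Aldoa, which was not printed, also held 2 such stretches.

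The hexokinases phosphorylate glucose at the outer mitochondrial membrane, Hk1 in most tissues and Hk2 mainly in muscle, fat and fast-growing cells. Hk1 (chr10:62268855-62379908) was at 136, 152 and 161 CPM without RHPS4, at 110.3, 111 and 118 CPM at 2 µM, and at 121 and 103 CPM at 10 µM. Both treated groups lay below every untreated library and overlapped each other. Neither difference met the threshold, with log2 fold changes of -0.40 (SE 0.0857, edgeR adjusted p = 0.0288) at 2 µM and -0.42 (SE 0.0964, edgeR adjusted p = 0.0163) at 10 µM. With DESeq2 the adjusted p was 0.00737 at 2 µM and 0.00204 at 10 µM, with both changes under the minimum fold. Hk2 (chr6:82725025-82774454) was at 89.6, 87.4 and 92.5 CPM, at 77.2, 74.2 and 78.6 CPM, and at 64.4 and 66.0 CPM at the 3 doses. Its libraries formed 3 separate steps, and at 10 µM the log2 fold change of -0.46 (SE 0.0728, edgeR adjusted p = 0.00218) passed the adjusted p but not the minimum fold. At 2 µM it was -0.23 (SE 0.0643, adjusted p = 0.0722).

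The ratio of Hk2 to Hk1 counts within a library does not depend on how libraries are scaled. Its log2 was -0.60, -0.80 and -0.80 without RHPS4, -0.51, -0.58 and -0.59 at 2 µM, and -0.91 and -0.64 at 10 µM. Untreated and 10 µM libraries overlapped, and those at 2 µM were slightly above both. An exact permutation test over the 3 doses gave p = 0.146, unchanged after adjustment over the 4 paralog ratios tested. The difference at 10 µM against 0 µM was -0.047 with an SE of 0.105, and its sign turned without the first 10 µM library, to 0.088. Per kilobase of exon, Hk1 made up 53.8% ± 1.98 (SD, n = 3) of the summed Hk1 and Hk2 level without RHPS4, 50.8% ± 0.708 (n = 3) at 2 µM and 54.6% ± 3.27 (n = 2) at 10 µM. The split depended on the length: with the longest transcript the share of Hk1 was 68.2%, 65.5% and 68.8% at these doses. The summed level per kilobase of exon at 2 and 10 µM was 80.1% and 73.9% of that at 0 µM, a description with no test. A change of the balance between these paralogs was not detectable with these libraries.

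Gpi1, the isomerase between glucose phosphate and fructose phosphate, lies at chr7:34201330-34230336. It was at 224, 215 and 224 CPM, at 186, 186 and 181 CPM, and at 138 and 151 CPM at 0, 2 and 10 µM. The 3 doses did not overlap. The log2 fold change was -0.26 (SE 0.0649, adjusted p = 0.0479) at 2 µM and -0.61 (SE 0.0738, edgeR adjusted p = 0.000375) at 10 µM. Gpi1 lay just beyond the minimum fold at 10 µM, and without the first 10 µM library it was just inside it (log2 fold change -0.58, adjusted p = 0.00605). With library totals alone its log2 fold change was -0.39 and the call was lost. Of its 75-base stretches 10.82% also occur in Gm26762, which overlaps it on the opposite strand, or in Gm1840, so part of its counts could have been shared or lost.

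Phosphofructokinase forms tetramers from the subunits that Pfkl (liver type), Pfkm (muscle type) and Pfkp (platelet type) encode. Pfkl (chr10:77986947-78010083) was at 209.6, 185 and 191 CPM without RHPS4, at 174, 169 and 159 CPM at 2 µM, and at 101 and 97.8 CPM at 10 µM. The 3 doses did not overlap, and both 10 µM libraries were far below the rest. The log2 fold change was -0.22 (SE 0.0714, adjusted p = 0.107) at 2 µM and -0.98 (SE 0.0826, edgeR adjusted p = 2.89e-05) at 10 µM, and that from 2 to 10 µM was -0.75 (SE 0.0823, adjusted p = 0.000141). Pfkl had the largest decrease of the 10 genes at 10 µM.

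Pfkm (chr15:98092589-98132451) was at 68.7, 62.5 and 60.3 CPM, at 53.6, 57.8 and 52.9 CPM, and at 58.7 and 69.3 CPM at the 3 doses. The 2 µM libraries were below all others, and the 10 µM libraries spanned the range of the untreated ones. None of its differences met the threshold, with log2 fold changes of -0.22 (SE 0.0854, adjusted p = 0.174) at 2 µM and 0.0064 (SE 0.0945, adjusted p = 0.974) at 10 µM, where its sign depended on the processing. From 2 to 10 µM the log2 fold change was 0.22 (SE 0.0951, edgeR adjusted p = 0.112). Its exons share 8.13% of their 75-base stretches with Gm26513 on the same strand, so its counts are uncertain to that extent.

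Pfkp (chr13:6579768-6648777) was at 58.1, 56.8 and 57.9 CPM without RHPS4, at 38.1, 37.5 and 35.5 CPM at 2 µM, and at 54.7 and 55.7 CPM at 10 µM. The 2 µM libraries were far below both other groups, and those at 10 µM were just below the untreated ones. The log2 fold change was -0.64 (SE 0.0680, edgeR adjusted p = 0.00121) at 2 µM and -0.061 (SE 0.0742, adjusted p = 0.623) at 10 µM, where it was 0.16 with library totals alone. From 2 to 10 µM it was 0.58 (SE 0.0752, adjusted p = 0.000456), a fold of 1.49 that fell just short of the minimum of 1.5. The call at 2 µM was lost without the third 0 µM library (adjusted p = 0.0108) and without the second 2 µM library (adjusted p = 0.0141), while the log2 fold change stayed at -0.63 and -0.65. It was also lost with library totals alone, where the log2 fold change was -0.56. Exons of Pfkp overlap Pitrm1 on the opposite strand, with 4.87% of its 75-base stretches in common.

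**Figure D2:**
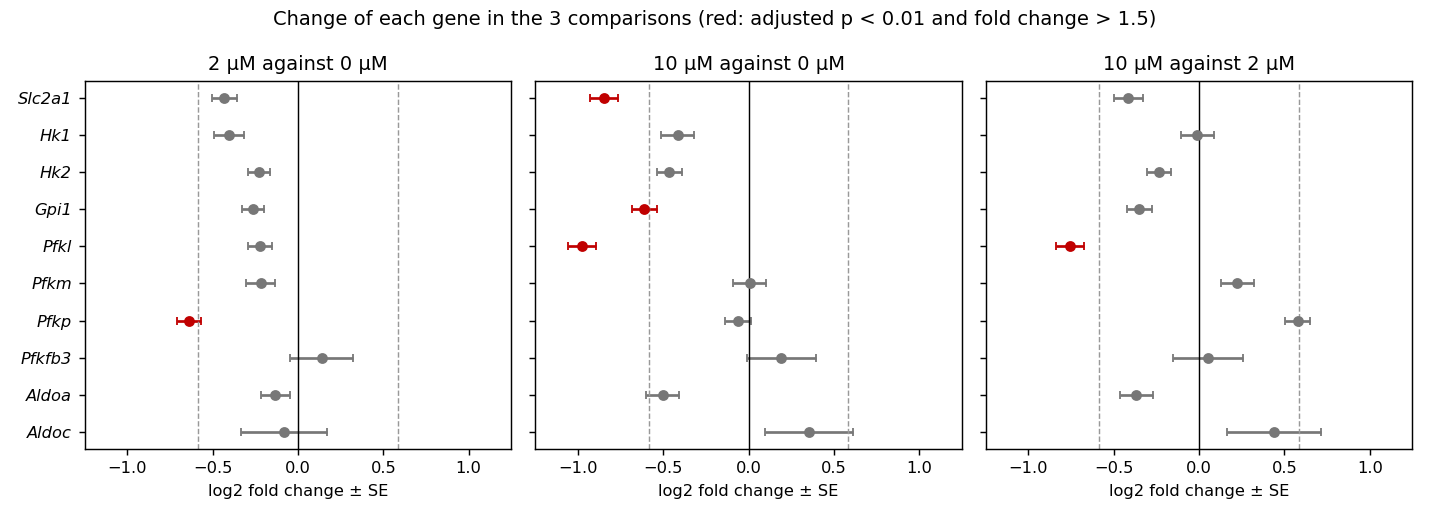
Log2 fold change of the 10 genes (points) with its SE (bars) in the 3 dose comparisons; dashed lines mark a fold change of 1.5 and red marks an adjusted p under 0.01 beyond it. Slc2a1, Gpi1 and Pfkl are red at 10 µM against 0 µM, Pfkp is red at 2 µM, and Pfkp lies on the opposite side of 0 from Pfkl between 2 and 10 µM.

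The phosphofructokinase paralogs thus differed in their course over the doses, which the ratios within a library tested without any scaling. The log2 ratio of Pfkp to Pfkl was -1.85, -1.71 and -1.73 without RHPS4, -2.19, -2.17 and -2.16 at 2 µM, and -0.88 and -0.81 at 10 µM. All 3 groups were fully separate, and the exact permutation test over doses gave p = 0.00357, the smallest that its 560 assignments allow, or 0.0143 after adjustment over 4 ratios. The ratio changed by -0.42 (SE 0.0446) from 0 to 2 µM and by 1.33 (SE 0.0499) from 2 to 10 µM, which is a 2.51-fold increase. Without the first or the second 10 µM library, the other, at -0.81 or -0.88, stayed above all libraries at 0 and 2 µM. A p-value cannot decide the question there, since a lone library has no spread and the fewer assignments limit how small p can be.

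The log2 ratio of Pfkm to Pfkl was -1.61, -1.57 and -1.67 without RHPS4, -1.70, -1.55 and -1.59 at 2 µM, and -0.78 and -0.50 at 10 µM. Libraries at 0 and 2 µM overlapped and both 10 µM libraries were above all others, by 0.98 (SE 0.0977) against 0 µM, or 1.97-fold. The exact permutation test over doses gave p = 0.0357, which was 0.0714 after adjustment over 4 ratios and did not pass 0.05. Pairwise exact permutation tests of 3 against 3 libraries cannot go below p = 0.1, and those of 3 against 2 not below 0.2.

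Read as shares of the summed level per kilobase of exon, Pfkl made up 55.6% ± 0.741 (SD, n = 3) of phosphofructokinase mRNA without RHPS4, 56.7% ± 1.19 (n = 3) at 2 µM and 39.1% ± 2.84 (n = 2) at 10 µM. The share of Pfkm was 36.3% ± 0.810, 37.1% ± 1.26 and 50.1% ± 3.27, and that of Pfkp 8.17% ± 0.411, 6.24% ± 0.0791 and 10.8% ± 0.428. Pfkm was thus the most abundant of the 3 at 10 µM on this scale, but with the longest transcript as the length Pfkl remained first, at 64.5%, 65.8% and 48.3%. The summed level was 84.0% of that at 0 µM at 2 µM and 72.4% at 10 µM on the exon scale.

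**Figure D3:**
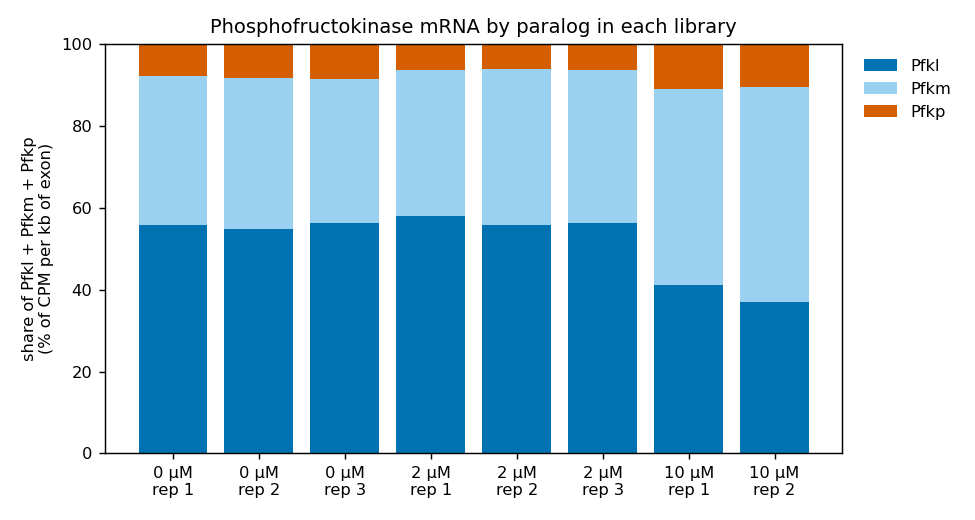
Share of each phosphofructokinase paralog in their summed level (% of CPM per kilobase of exon) in each of the 8 libraries, as stacked bars that add to 100. The share of Pfkl is 54.7 to 58.0% in the 6 libraries at 0 and 2 µM and 37.0 to 41.1% in both libraries at 10 µM.

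Pfkfb3 (chr2:11471433-11554077) makes the sugar bisphosphate that activates phosphofructokinase. It was low, with 43 to 156 counts per library, at 4.46, 5.35 and 6.19 CPM without RHPS4, 4.94, 5.30 and 7.55 CPM at 2 µM, and 5.68 and 6.91 CPM at 10 µM. All groups overlapped. The log2 fold changes were 0.14 (SE 0.185, adjusted p = 0.711) at 2 µM and 0.19 (SE 0.203, adjusted p = 0.570) at 10 µM, so a change was not detectable at this depth.

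Aldoa (chr7:126795234-126800751) encodes the aldolase of muscle and most cultured cells, and was the most abundant of the 10 genes. It was at 958, 800.3 and 817 CPM without RHPS4, at 827, 766 and 753 CPM at 2 µM, and at 586 and 626 CPM at 10 µM. The 10 µM libraries were below all others, and the groups at 0 and 2 µM overlapped. The log2 fold change was -0.13 (SE 0.0851, adjusted p = 0.392) at 2 µM and -0.50 (SE 0.0965, edgeR adjusted p = 0.00659) at 10 µM, which passed the adjusted p but not the minimum fold. Aldoc (chr11:78322968-78327781), the brain type, had 14 to 34 counts per library, at 1.45, 1.64 and 1.35 CPM, 1.85, 1.22 and 1.19 CPM, and 1.65 and 2.16 CPM at the 3 doses. Its log2 fold change at 10 µM was 0.35 with an SE of 0.259 (adjusted p = 0.398), although both libraries lay above the untreated ones.

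The log2 ratio of Aldoc to Aldoa was -9.31, -8.91 and -9.22 without RHPS4, -8.77, -9.24 and -9.27 at 2 µM, and -8.45 and -8.16 at 10 µM. Both 10 µM libraries were above the rest, but the exact permutation test over doses gave p = 0.0607, or 0.0810 after adjustment. Aldoa made up 99.8% ± 0.0243 (SD, n = 3) of the aldolase mRNA per kilobase of exon without RHPS4, and 99.7% ± 0.0397 (n = 2) at 10 µM.

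**Figure D4:**
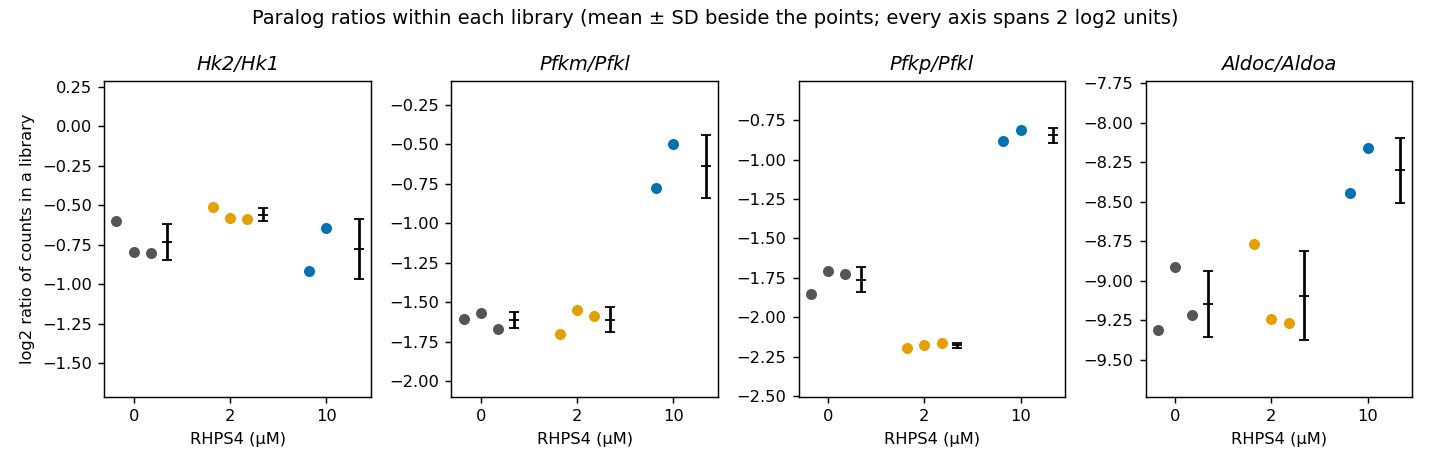
Log2 ratio of the counts of paralogs in each library (points) by RHPS4 dose, with the mean ± SD beside the points; every vertical axis spans 2 log2 units. Pfkp/Pfkl separates the 3 doses, Pfkm/Pfkl separates 10 µM from both others, and Hk2/Hk1 does not separate 0 from 10 µM.

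Levels can be compared between genes only per length. Without RHPS4 the order per kilobase of exon was Aldoa (295 CPM per kilobase), Slc2a1 (40.1), Gpi1 (34.2), Pfkl (29.3), Pfkm (19.1), Hk1 (17.5), Hk2 (15.0), Pfkp (4.30), Pfkfb3 (0.706) and Aldoc (0.453). Pfkm and Hk1 overlapped, and all other neighbours in the order were separate. At 10 µM Gpi1 and Slc2a1 overlapped (22.4 and 22.3), and Pfkm (19.2) stood above Pfkl (14.9). The order depended on the length: with the longest transcript Slc2a1 came after Gpi1 and Pfkl without RHPS4, and Pfkl stayed above Pfkm at 10 µM.

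Among 72 other genes of glucose metabolism in 6 lists, 61 were tested. At 2 µM none was a DEG upward and 2 were downward, at 10 µM 1 was upward and 4 downward, and from 2 to 10 µM 3 were upward and none downward. Upward DEGs were 0.119%, 1.95% and 3.92% of all tested genes in these comparisons and downward ones 0.378%, 1.14% and 1.59%, and the 3 of 61 are near that background. The 12 tested genes of other glucose transporters and glucose kinases held Slc2a6, a transporter of lysosomal membranes, which was higher at 10 µM (log2 fold change 1.20, SE 0.166, adjusted p = 0.000911), and Slc2a8, which was higher at 10 µM than at 2 µM (0.84, SE 0.164, adjusted p = 0.00441). Both had few counts, at 6.49 and 5.95 CPM on average at 10 µM, values that were not divided by length. Of the 4 tested other enzymes of fructose phosphate and the 8 of the pentose phosphate pathway none was called in any comparison.

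Of the 13 tested genes of lower glycolysis and lactate, Gapdh, the dehydrogenase that follows aldolase, was lower at 10 µM (-0.59, SE 0.0985, adjusted p = 0.00296). The median log2 fold change of that list at 10 µM against 0 µM was -0.34. It was 0.12 for other transporters and glucose kinases, -0.13 for other fructose phosphate enzymes and -0.088 for the pentose phosphate pathway. For glycogen and glucose phosphate it was -0.16, and for the regulators -0.31. Of the 9 genes of glycogen and glucose phosphate, Pgm2 was lower at 10 µM (-0.67, SE 0.0849, adjusted p = 0.000542). Among the 15 tested regulators, Egln3, an oxygen-sensing prolyl hydroxylase that is itself induced in hypoxia, was lower at 2 µM (-0.94, SE 0.148, adjusted p = 0.00747) and at 10 µM (-1.28, SE 0.172, adjusted p = 0.000776), and Egln1, a related hydroxylase, was lower at 10 µM (-0.66, SE 0.118, adjusted p = 0.00420). Txnip, which restrains glucose uptake, was lower at 2 µM (-1.12, SE 0.0877, adjusted p = 0.000217) and higher from 2 to 10 µM (1.28, SE 0.0954, adjusted p = 8.13e-06), at 122, 56.0 and 136 CPM on average at the 3 doses. Like Pfkp and Pfkm, Txnip was lowest at 2 µM.

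For each gene called in any comparison, the tested gene outside the 10 with the closest pattern was found by the root mean square difference of centred log2 CPM over the 8 libraries. It was P4ha2 for Slc2a1 (0.0536), Fdft1 for Gpi1 (0.0479), Apln for Pfkl (0.0851) and AW551984 for Pfkp (0.0599). The closest of the 10 themselves was Gpi1 for Slc2a1 (0.102, with 7 other genes closer), Hk2 for Gpi1 (0.0723, with 6 closer), Slc2a1 for Pfkl (0.150, with 32 closer) and Pfkm for Pfkp (0.207, with 565 closer). These distances describe 8 libraries that share doses and depth.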

How the data were processed

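RNA-Seq libraries were stranded, made from total MEF RNA after removal of nuclear ribosomal RNA, and read as 75 bp pairs. Per the labels and the study's methods, the authors trimmed the reads with Trim Galore and cutadapt, aligned them to mm10 with STAR 2.5.2a and used featureCounts to count fragments that mapped uniquely to a gene. The deposited values are these raw counts per gene and library, without normalization. The annotation and the strand setting of the counting are not given in the sources used here.

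The counts were tested with edgeR 4.0.16 under R 4.3.3 (normalization by TMM, filterByExpr, glmQLFit, glmQLFTest, Benjamini-Hochberg over all 14296 tested genes), with all 8 libraries in 1 fit and the dose as the only factor. An SE was obtained by dividing the absolute log2 fold change by √F. CPM were TMM-scaled. Lengths and positions came from GENCODE M21 on GRCm38 (mm10), to which 95.75% of 24421 nuclear genes matched by symbol, and promoters from RefSeq on GRCm38. Two-sided exact permutation tests were run on log2 ratios with 0.5 added to each count (Python 3.11.15, scipy 1.17.1). DESeq2 1.42.0 was an alternative. The procedure was tested on simulated counts.

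All 10 genes were named, listed genes only where called, and 1 gene of closest pattern per called gene. The 10 genes and the lists were chosen with earlier results of these data known. The alternatives were other normalizations, filters, GC correction, lengths and pseudocounts, only 2 groups in the fit, a block for the replicate number, and leaving out each library in turn. No protein sequence was used here.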

Additional observations from a re-analysis of the deposited data

How the results depend on the processing

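Of the alternatives to the log2 fold changes of the 10 genes, 537 kept direction and call, 5 lost a call, 7 gained one and 21 turned direction, the last all for differences that were not called. Scaling by library totals alone gave 0 of the 10 genes called at 2 µM (Pfkp -0.56), 2 from 2 to 10 µM (Pfkp 0.71), Gpi1 at -0.39 at 10 µM, and 914 genes called at 10 µM. Its split was 846 higher and 68 lower, against 279 and 163 (at 2 µM 26 and 40 against 17 and 54), and from 2 to 10 µM 923 and 84 against 561 and 227. With no minimum fold, 5 and 4 of the 10 genes were called at 10 µM and from 2 to 10 µM, and 107, 747 and 1539 of all genes in the 3 comparisons. DESeq2 called 109 genes at 2 µM, and at 10 µM 233 higher and 269 lower. With no filter the split at 10 µM was 275 and 285, and with GC correction 225 and 208 (420 and 415 from 2 to 10 µM).

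Leaving out 1 library gave 0 to 1 of the 10 genes called at 2 µM and 1 to 2 from 2 to 10 µM (2 without the first 2 µM library, Pfkp 0.59). Genes called numbered 6 to 144 at 2 µM (144, 19 and 15 without replicates 1, 2 and 3 of 0 µM, and 24, 6 and 29 without those of 2 µM), 235 to 633 at 10 µM (266 and 293 without replicates 2 and 3 of 0 µM, 235 without replicate 2 of 10 µM) and 444 to 884 from 2 to 10 µM (515 without the second 2 µM library, 444 without the second 10 µM one). The Hk2/Hk1 change was -0.18 to 0.088 at 10 µM against 0 µM and -0.35 to -0.084 against 2 µM, and its adjusted p over doses 0.133 to 0.371 (exact permutation; the direction turned at 0.133 without the first 0 µM library and 0.171 without the first 10 µM one). That of Pfkm/Pfkl was 0.84 to 1.12 and 0.83 to 1.12. The adjusted p of Pfkp/Pfkl (exact permutation) was 0.0381 to 0.0571, the latter without the first or second 10 µM library. These are the smallest values that the fewer assignments allow. Passing or missing 0.05 therefore cannot show whether the difference held. Without the first or second 10 µM library its change from 2 to 10 µM was 1.36 or 1.30. The lone 10 µM library was then assumed to vary like the other groups.

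Direction also turned for Pfkfb3 (at 2 µM -0.094 without replicate 3 of 2 µM, to 0.27 without others; from 2 to 10 µM -0.024 with GC correction, and -0.062, -0.029 and -0.13 without replicate 1 or 2 of 2 µM or 2 of 10 µM, to 0.27), for Aldoc (at 2 µM 0.014 and 0.053 without replicate 2 of 0 µM or 3 of 2 µM, down to -0.29), for Pfkp (0.16 at 10 µM with library totals), for Hk1 (from 2 to 10 µM 0.12 with library totals, 0.062 without replicate 2 of 10 µM, -0.17 without replicate 1) and for Pfkm at 10 µM (-0.010 with RLE, -0.033 with no filter, -0.030 with DESeq2, -0.017 with GC correction, -0.026, -0.031, -0.011 and -0.15 without replicate 2 or 3 of 0 µM, 3 of 2 µM or 2 of 10 µM, to 0.092). With the longest transcript the log2 ratios per kilobase without RHPS4 were -1.10, -1.24, -2.98 and -10.03 for Hk2/Hk1, Pfkm/Pfkl, Pfkp/Pfkl and Aldoc/Aldoa. The causes were not tested.

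Whether the replicate number paired the samples could not be decided. The correlations of same-numbered 0 and 2 µM libraries were 0.199, 0.0845 and 0.161. Between these doses each library correlated best with its own number, a hint only. Same-numbered correlations with 10 µM were negative. With only 2 libraries at 10 µM, deviations from their mean mirror each other, so these negative values rest on a single contrast. With the replicate block 54, 322 and 735 genes were called in the 3 comparisons, and with the block and GC correction 41 at 2 µM. The 10 genes kept their calls with the block; Pfkm at 10 µM was -0.028 (-0.049 with GC correction) and Hk1 from 2 to 10 µM 0.032. Low counts limited Aldoc and Pfkfb3.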
